A study of Mus musculus with 10 samples.

Results

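The neuronal nicotinic acetylcholine receptor subunits comprise 9 genes, taken by symbol from the 55414 genes counted in each library: *Chrna2*, *Chrna3*, *Chrna4*, *Chrna5*, *Chrna6*, *Chrna7*, *Chrnb2*, *Chrnb3* and *Chrnb4*. Their RNA was measured by bulk RNA-sequencing of dorsal root ganglia (DRG), the ganglia that hold the cell bodies of somatosensory neurons, from 5 control and 5 *WD1* cKO mouse embryos at E18.5. *WD1* cKO embryos were Wnt1Cre/+; Dach1flox/flox, in which Cre acts in the neural crest, the source of DRG neurons and glia and also of sympathetic neurons and adrenal medulla, and removes a floxed exon of the transcription factor gene *Dach1*. Controls were littermates, taken here to be without Cre although the genotype entries of the labels conflict with the sample titles. The floxed line was kept on a mixed C57Bl/6J and CD1 background, and mutants die soon after birth. Nothing says which embryos share a litter, so p-values measure only the spread between these libraries. The comparison asks whether loss of *Dach1* in the neural crest changes the RNA levels of these subunits.

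Nicotinic receptors are pentameric cation channels that open when acetylcholine binds, and the subunits that build a channel set its affinity, calcium permeability and rate of desensitisation. *Chrna7* can form channels alone, whereas the other alpha subunits listed here join with beta subunits, and *Chrna5* and *Chrnb3* act as accessory subunits that need an alpha and a beta partner. Receptors of *Chrna3* with *Chrnb4* carry fast transmission in autonomic ganglia, those of *Chrna4* with *Chrnb2* predominate in brain, and sensory neurons of the DRG are known to express several of these subunits.

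In the sample labels, titles and genotype entries name opposite groups, and grouping here follows the titles. *Dach1* was at 37.9 ± 2.40 CPM (counts scaled to library size by edgeR's TMM method; SD, n = 5) in control and at 20.0 ± 0.677 CPM (SD, n = 5) in *WD1* cKO libraries (log2 fold change -0.92, SE 0.050, adjusted p = 5.48e-06 in edgeR's quasi-likelihood test). The study reported that Dach1 immunostaining was lost in E18.5 *WD1* cKO DRG. The count covers the whole gene, not only the floxed exon, and why *Dach1* reads remain was not tested. Total counts per library ranged from 19757596 to 34796562. The 8 sensory neuron markers matched of 9 listed, such as *Isl1* and *Avil*, summed to between 4340 and 4710 CPM in every library, most of it from *Prph* and *Avil*. Of them 7 were lower in *WD1* cKO by sign, as were 8719 of the 17490 genes tested. An unadjusted p under 0.05 was reached by 1 of the 8 markers, against 4.50% of all genes tested (edgeR). This was *Ntrk2*, the BDNF receptor TrkB, at 215 ± 12.4 CPM in control and 189 ± 14.4 CPM in *WD1* cKO (SD, n = 5 each, log2 fold change -0.18, SE 0.056, unadjusted p = 0.00611, adjusted p = 1.00, edgeR). Of the 4 connective tissue markers 1 had an unadjusted p under 0.05, *Lum*, at 33.1 ± 4.93 CPM in control and 38.4 ± 1.57 CPM in *WD1* cKO (SD, n = 5 each; unadjusted p = 0.0277, adjusted p = 1.00, edgeR). In bulk tissue, fewer cells of a type and less RNA per cell cannot be told apart. By immunostaining, the study reported no difference from controls in Islet1-positive neurons or general subtype markers in E18.5 *WD1* cKO DRG.

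One library stands apart in several of the subunits. In control replicate 5, all 9 markers of sympathetic and autonomic neurons had their highest value of the 10 libraries, and their sum was 288 CPM against 36.5 to 76.0 CPM in the other 9 libraries. The largest of them were *Slc6a2*, the noradrenaline transporter, at 112 CPM and *Dbh*, which makes noradrenaline, at 53.1 CPM. *Gata3* had no count in control replicate 4, and *Hand2* had none in *WD1* cKO replicate 4. Of the 6 skeletal muscle markers, 5 were also highest in control replicate 5, where they summed to 152 CPM against 25.1 to 104 CPM elsewhere. In control replicate 3, 5 of 6 spinal cord markers were highest, with a sum of 12.4 CPM against at most 1.06 CPM elsewhere.

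Of the subunits, 3 lie side by side on chromosome 9, in the order *Chrna5*, *Chrna3*, *Chrnb4*, with *Chrna5* on the plus strand and the others on the minus strand. The sequences upstream of their starts are shown because these genes are neighbours and had a library in common at the top of their range. They are the 250 bases before the start in RefSeq promoter tables (GRCm38.p6), written 5′ to 3′ on the gene's strand, at chr9:55026563-55026812 (minus) for *Chrna3*, chr9:54981238-54981487 (plus) for the nearer of 2 windows of *Chrna5* and chr9:55048545-55048794 (minus) for *Chrnb4*. Capitals mark GGGCGG, a GC box of the kind bound by Sp factors, and CAGCTG, an E-box, each searched on both strands, so that a GC box on the other strand reads CCGCCC.
Chrna3: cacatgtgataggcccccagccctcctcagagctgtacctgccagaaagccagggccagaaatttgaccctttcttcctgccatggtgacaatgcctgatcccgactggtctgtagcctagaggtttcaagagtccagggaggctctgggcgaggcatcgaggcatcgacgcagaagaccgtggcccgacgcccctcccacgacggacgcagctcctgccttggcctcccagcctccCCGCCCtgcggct
Chrna5: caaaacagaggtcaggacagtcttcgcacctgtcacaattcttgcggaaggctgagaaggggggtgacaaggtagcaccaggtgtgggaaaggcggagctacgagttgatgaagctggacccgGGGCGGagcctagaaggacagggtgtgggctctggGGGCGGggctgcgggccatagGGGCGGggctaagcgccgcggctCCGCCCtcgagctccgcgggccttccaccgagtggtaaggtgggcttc
Chrnb4: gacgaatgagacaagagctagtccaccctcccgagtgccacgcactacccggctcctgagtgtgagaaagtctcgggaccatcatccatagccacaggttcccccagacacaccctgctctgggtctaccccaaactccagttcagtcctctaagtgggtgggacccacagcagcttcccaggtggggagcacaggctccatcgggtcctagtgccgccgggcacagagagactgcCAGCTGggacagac

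GGGCGG was found 4 times before *Chrna5*, 1 time before *Chrna3* and not before *Chrnb4*, which held CAGCTG 1 time. The other window of *Chrna5* held neither. Over 32851 promoter windows of the same length, 32.7% held GGGCGG and 13.0% held CAGCTG, so neither motif is rare. Windows were matched for 6 of the 9 subunit genes.

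*Chrnb2* and *Chrna7* were the subunits with the most RNA per length of exon. In RPKM (CPM divided by the exon length in kilobases), *Chrnb2* was at 10.8 ± 0.686 (SD, n = 10 libraries) and made up 43.6% of the sum of the 9 subunits on average. *Chrna7* was next at 5.84 ± 0.534 RPKM, or 23.5% of the sum. *Chrna3* (1.93 ± 0.601 RPKM), *Chrna4* (1.86 ± 0.239 RPKM), *Chrna6* (1.66 ± 0.462 RPKM), *Chrnb4* (1.23 ± 0.463 RPKM) and *Chrna5* (1.19 ± 0.299 RPKM) followed. The ranges of each neighbouring pair among these 5 overlapped. Within libraries, *Chrna3* was above *Chrna4* in 3 of 10, *Chrna4* above *Chrna6* in 6, *Chrna6* above *Chrnb4* in 9 and *Chrnb4* above *Chrna5* in 5, while *Chrna3* was above both *Chrnb4* and *Chrna5* in all 10. *Chrnb3* was lower, at 0.398 ± 0.118 RPKM, and its range lay below that of *Chrna5*.

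**Figure D1:**
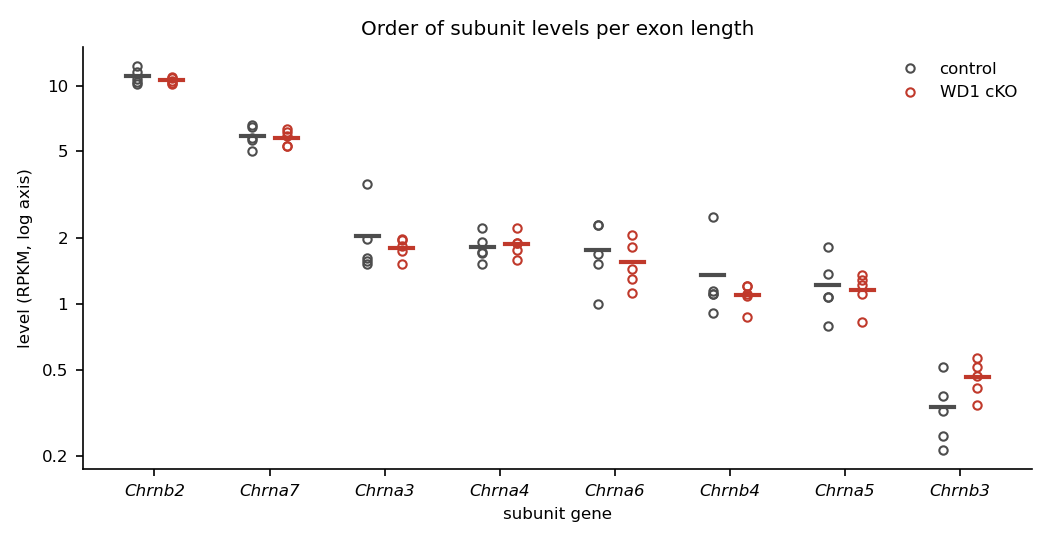
Level of 8 subunit genes in RPKM on a log axis, ordered by mean, with 1 circle per library and a line at the group mean (control in grey, WD1 cKO in red, n = 5 each). Chrnb2 and Chrna7 sit above the rest in every library, the 5 genes from Chrna3 to Chrna5 overlap, and Chrnb3 lies lowest; Chrna2, with 0 to 3 counts per library, is not drawn.

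*Chrna2* was at or under the floor of 3 counts in every library. It had 0, 0, 0, 0 and 1 counts in control replicates 1 to 5 and 1, 1, 3, 1 and 0 counts in *WD1* cKO replicates 1 to 5. A floor of 3 counts corresponds to 0.0866 to 0.152 CPM over the libraries, so the gene was not detectable beyond that level, and it did not pass the filter on low counts. The limit covers counting error only.

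No subunit passed the test between the genotypes. In edgeR's quasi-likelihood test, 0 of 8 had an adjusted p-value under 0.05, against 0.0400% of the 17490 genes tested, and 0 of 8 had an unadjusted p-value under 0.05, against 4.50% of all genes. DESeq2's Wald test gave 0 of 8 as well. The study's own cut-off, which asks for an unadjusted p under 0.005 and a log2 fold change beyond 0.15 in either direction, was passed by 0 of 8 subunits and by 0.383% of all genes. The control and *WD1* cKO libraries overlapped for each of the 8, while they did not overlap for 1.06% of all genes. The median log2 fold change of the subunits was -0.07, with 2 higher and 6 lower in *WD1* cKO, against 0.00 over all genes tested.

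**Figure D2:**
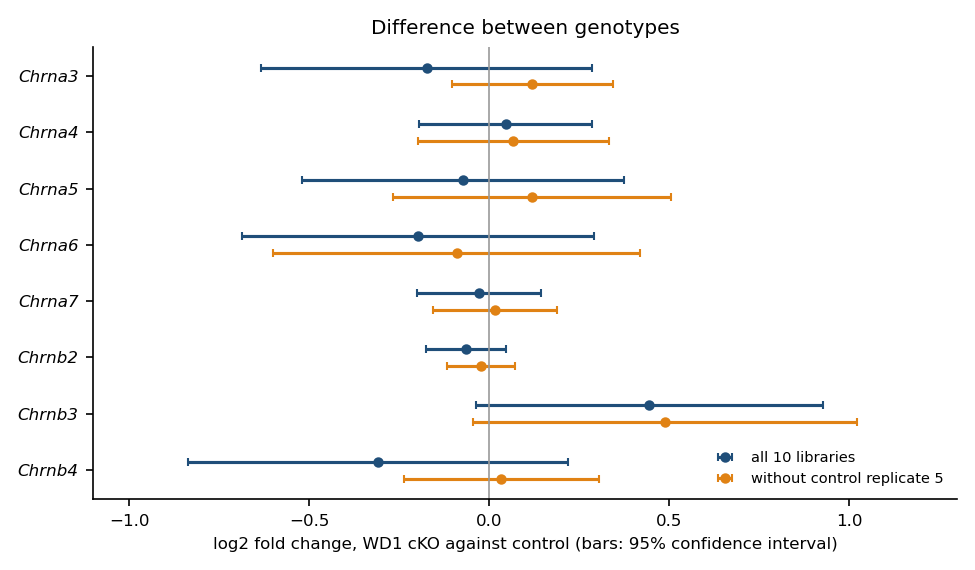
Log2 fold change of each tested subunit, WD1 cKO against control, with its 95% confidence interval from edgeR, for all 10 libraries (blue) and without control replicate 5 (orange). Every interval spans 0, and the estimates of Chrna3, Chrna5, Chrna7 and Chrnb4 lie below 0 with all libraries and above 0 without that one.

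Among the subunits of the chromosome 9 cluster, *Chrna3* was at 8.24, 8.03, 10.5, 8.54 and 18.7 CPM in control replicates 1 to 5 and at 10.3, 9.69, 9.17, 8.08 and 10.5 CPM in *WD1* cKO replicates 1 to 5. Control replicate 5 was 1.79 times the highest other library, and the remaining libraries of both groups covered the same range. The log2 fold change of *Chrna3* was -0.17 (SE 0.211, adjusted p = 1.00, edgeR) with all libraries and 0.12 without control replicate 5.

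*Chrnb4*, the beta partner of *Chrna3* in autonomic ganglia, was at 4.15, 3.40, 4.28, 4.12 and 9.33 CPM in control and at 4.51, 3.23, 4.04, 4.12 and 4.50 CPM in *WD1* cKO replicates 1 to 5. Control replicate 5 was again the highest, at 2.07 times the next library, and the other 9 lay close together. Its log2 fold change was -0.31 (SE 0.243, adjusted p = 1.00, edgeR), and 0.03 without that library.

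*Chrna5*, the accessory subunit of the cluster, was at 4.29, 3.35, 3.34, 2.47 and 5.72 CPM in control and at 4.25, 3.99, 3.81, 2.59 and 3.46 CPM in *WD1* cKO replicates 1 to 5. Control replicate 5 was highest here as well, by a smaller factor of 1.33, and replicate 4 was lowest in both groups. The log2 fold change was -0.07 (SE 0.205, adjusted p = 1.00, edgeR), and 0.12 without control replicate 5. In RefSeq the spans of *Chrna5* and *Chrna3* overlap by 1304 bases on opposite strands, whereas in the GENCODE M21 annotation they do not overlap. The strand setting of the counting is not stated, so reads from the RefSeq overlap may be assigned to either gene or to neither.

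The relation of each tested subunit to the summed autonomic markers was computed across the 10 libraries (8 relations, Benjamini-Hochberg adjusted permutation p). These relations were not planned beforehand. Control replicate 5 stands apart in the markers and in the chromosome 9 subunits, so the p-values are drawn from the pattern they describe and are no independent test of it. For *Chrna3*, Pearson's r was 0.95 (p = 0.00266, adjusted p = 0.0106) and Spearman's rho 0.81 (p = 0.00716, adjusted p = 0.0442, permutation tests). Without the 2 libraries farthest from the median of the markers, r was 0.65 over 8 libraries, without control replicate 5 alone it was 0.72 over 9, and over the 6 libraries numbered 1 to 3 it was 0.68. For *Chrna5*, r was 0.84 (p = 0.00262, adjusted p = 0.0106) and rho 0.67 (p = 0.0386, adjusted p = 0.103, permutation tests), with r at 0.72 over 8 libraries, 0.81 without control replicate 5 alone and 0.24 over the libraries numbered 1 to 3. For *Chrnb4*, r was 0.86 (p = 0.0822, adjusted p = 0.164) and rho 0.54 (p = 0.113, adjusted p = 0.225, permutation tests), and r was 0.15 over 8 libraries and 0.07 without control replicate 5 alone, so the relation rests on control replicate 5. For *Chrna4*, r was 0.39 (p = 0.317, adjusted p = 0.507) and rho 0.78 (p = 0.0110, adjusted p = 0.0442, permutation tests), with r at 0.61 over 8 libraries and 0.69 without control replicate 5 alone. The other 4 subunits had an adjusted p of at least 0.0947 in these permutation tests. Without control replicate 5, r went from 0.78 to 0.35 for *Chrnb2*, from 0.17 to -0.63 for *Chrna6*, from 0.21 to -0.67 for *Chrna7* and from -0.12 to -0.30 for *Chrnb3*. These values describe a relation across libraries, and whether cells with the autonomic and muscle markers contribute to the subunit levels was not tested.

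**Figure D3:**
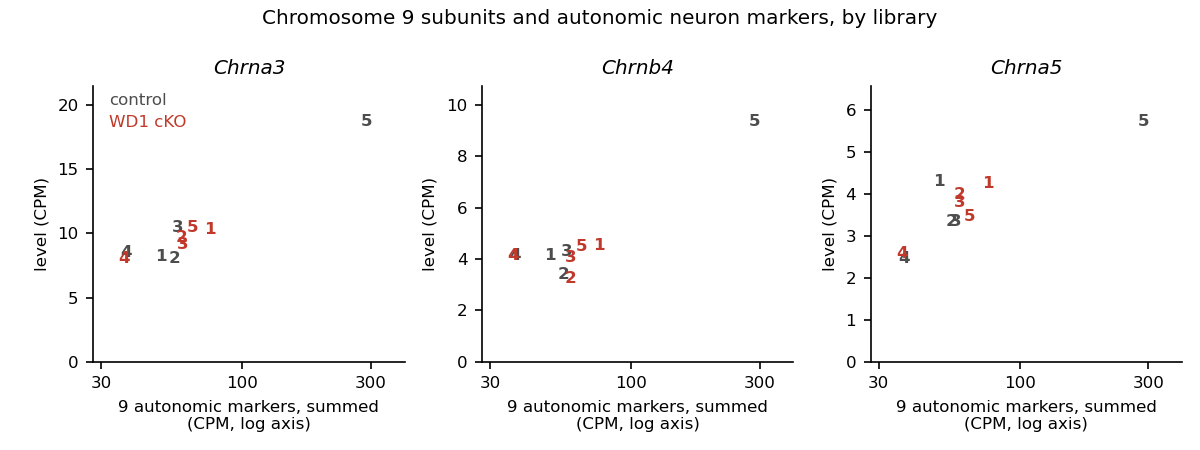
Level of Chrna3, Chrnb4 and Chrna5 (CPM) against the sum of 9 autonomic neuron markers (CPM, log axis), 1 digit per library giving its replicate number (control in grey, WD1 cKO in red). Control replicate 5 lies alone at the upper right of each panel, at 288 CPM of markers, while the other 9 libraries lie between 36.5 and 76.0 CPM.

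The ratio of *Chrna3* to *Chrnb4* did not set control replicate 5 apart. Per length, it was 1.61 ± 0.218 (SD, n = 10) with a range from 1.39 to 2.12, and control replicate 5 was inside it at 1.42. By contrast, the ratio of *Chrnb2* to *Chrnb4* was 4.92 in control replicate 5 and 8.90 to 12.8 in the other libraries.

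*Chrna6* and *Chrnb3*, which can join in a common receptor, are neighbours on chromosome 8 on opposite strands, and had estimates of opposite sign. *Chrnb3* was at 2.05, 1.59, 1.37, 3.28 and 2.42 CPM in control and at 2.19, 2.62, 2.98, 3.25 and 3.61 CPM in *WD1* cKO replicates 1 to 5. Of the mutant libraries, 4 of 5 were above 4 of the 5 controls, but control replicate 4 was above 4 of the 5 mutants, and the groups overlapped. Its log2 fold change of 0.45 (SE 0.222, 95% interval -0.04 to 0.93) was the largest of the 8 in size, at an unadjusted p of 0.0675 and an adjusted p of 1.00 in edgeR, and the exact permutation test gave p = 0.103, where the smallest p that 5 against 5 libraries allow is 0.00794. Its counts were low, from 29 to 125 per library. Without control replicate 4 the log2 fold change was 0.66 (unadjusted p = 0.00622, edgeR), which was the lowest p of any subunit under any setting.

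*Chrna6* was at 4.44, 2.91, 4.94, 6.70 and 6.64 CPM in control and at 3.79, 4.18, 3.25, 6.0 and 5.28 CPM in *WD1* cKO replicates 1 to 5. In both groups replicates 4 and 5 were the highest. The log2 fold change was -0.20 (SE 0.225, adjusted p = 1.00, edgeR). The ratio of *Chrna6* to *Chrnb3* per length was 5.44 ± 1.58 in control and 3.38 ± 0.640 in *WD1* cKO libraries (SD, n = 5 each). It was 1 of 6 ratios compared. A two-sided exact permutation test of log2 ratios gave p = 0.0159, or 0.0954 after Benjamini-Hochberg adjustment, so it did not pass the threshold.

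**Figure D4:**
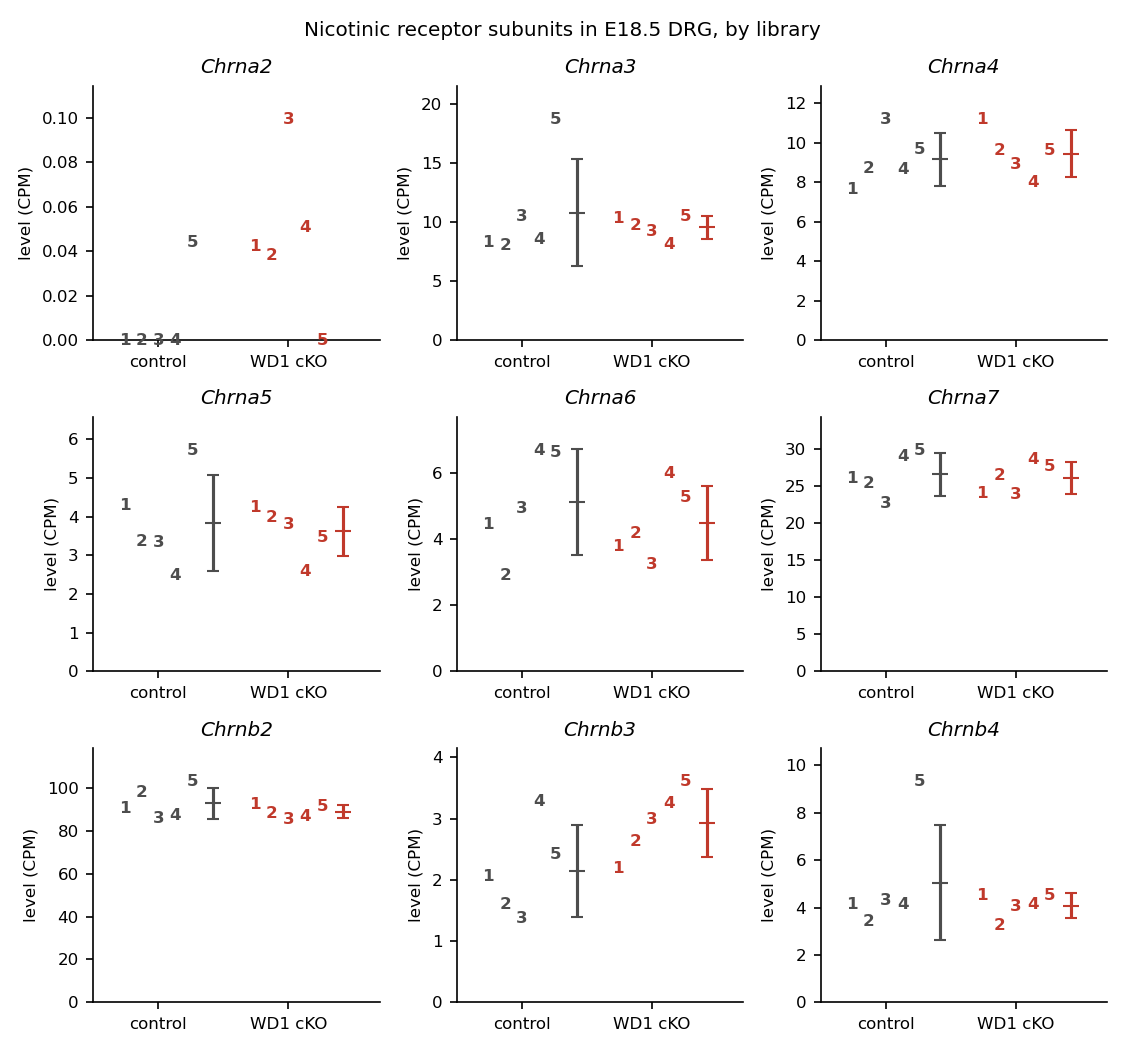
Level of each of the 9 subunits in CPM, 1 digit per library giving its replicate number, with the mean and SD of each group as a bar at the right (none for Chrna2, which is under the count floor). Control replicate 5 lies above all other libraries for Chrna3, Chrna5, Chrna7, Chrnb2 and Chrnb4, and replicates 4 and 5 of both groups lie above the rest for Chrna6 and Chrna7.

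*Chrna7* was at 26.0, 25.3, 22.6, 29.0 and 29.8 CPM in control and at 24.0, 26.4, 23.8, 28.5 and 27.6 CPM in *WD1* cKO replicates 1 to 5. The ranges of the groups overlapped widely, and its log2 fold change was -0.03 (SE 0.079, 95% interval -0.20 to 0.14, adjusted p = 1.00, edgeR), and 0.02 without control replicate 5. As for *Chrna6*, the 4 libraries numbered 4 and 5 were above the 6 numbered 1 to 3, at 27.6 to 29.8 against 22.6 to 26.4 CPM for *Chrna7* and at 5.28 to 6.70 against 2.91 to 4.94 CPM for *Chrna6*. This held for 2 of the 8 subunits, and for 6.11% of all genes tested. It also held for *Ric3*, a chaperone of nicotinic receptors, at 43.8 to 48.4 against 37.0 to 42.1 CPM, and for *Lynx1*, a membrane-anchored modulator of nicotinic receptors, at 155 to 193 against 93.5 to 131 CPM. The 4 blood markers went the other way, with a sum of 127 to 185 CPM in the libraries numbered 4 and 5 against 370 to 1970 CPM in the others. The labels name no batch, and the split was noticed in the values, so it is given with no test.

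*Chrnb2* was at 90.1, 97.5, 85.8, 87.1 and 103 CPM in control and at 92.2, 88.1, 85.2, 86.6 and 91.3 CPM in *WD1* cKO replicates 1 to 5. It had the narrowest interval of the subunits, with a log2 fold change of -0.06 (SE 0.051, 95% interval -0.17 to 0.05, adjusted p = 1.00, edgeR). With the level of *Xist*, which marks female embryos, as a covariate it was -0.11 (unadjusted p = 0.0358, edgeR). *Xist* was at 958 and 1170 CPM in 2 of 5 controls and at 974 to 1070 CPM in 4 of 5 *WD1* cKO libraries, and at no more than 4.85 CPM in the others, so the sexes were not balanced between the groups. On chromosome 3 *Chrnb2* shares 1365 exon bases with *Adar* on the opposite strand, so its level is uncertain by the reads of those bases.

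*Chrna4*, the partner of *Chrnb2* in brain, was at 7.66, 8.69, 11.2, 8.65 and 9.68 CPM in control and at 11.2, 9.61, 8.91, 7.98 and 9.61 CPM in *WD1* cKO replicates 1 to 5. The highest control was replicate 3, the library with spinal cord markers, and the groups overlapped. The log2 fold change was 0.05 (SE 0.111, 95% interval -0.19 to 0.29, adjusted p = 1.00, edgeR), and 0.13 without control replicate 3. The part of the spinal cord markers was not tested. The ratio of *Chrnb2* to *Chrna4* per length was 5.91 ± 0.784 (SD, n = 10).

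The subunits varied together in 2 sets when each group's mean was removed from log2 CPM (Pearson's r over 10 libraries, given as a description without a test). *Chrna3* and *Chrnb4* had r = 0.90 and *Chrna3* and *Chrna5* had r = 0.71, but without control replicate 5 these were 0.37 and 0.34. *Chrna7* and *Chrnb3* had r = 0.83, *Chrna6* and *Chrna7* had 0.71, and *Chrna6* and *Chrnb3* had 0.66, and these were 0.84, 0.64 and 0.63 without control replicate 5. *Chrna3* and *Chrna4* had r = 0.52 with that library and 0.89 without it. Mean levels of *Chrna6*, *Chrna7* and *Chrnb3* in libraries numbered 4 and 5 were 1.57, 1.16 and 1.47 times those in numbers 1 to 3. Only the genotype mean was removed, so this split by replicate number remains in r, and its part was not tested.

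**Figure D5:**
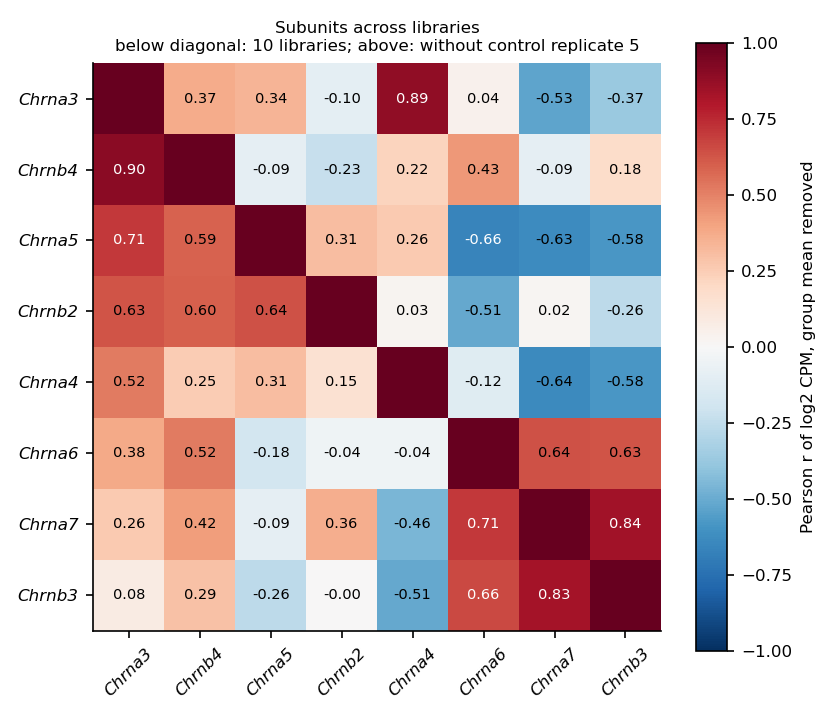
Pearson r between subunits across libraries (log2 CPM with the group mean removed), below the diagonal over all 10 libraries and above it without control replicate 5; red is positive and blue negative. The block of Chrna3, Chrnb4, Chrna5 and Chrnb2 fades above the diagonal, whereas Chrna6, Chrna7 and Chrnb3 keep r between 0.63 and 0.84. The split by replicate number was not removed.

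Among the 12750 genes whose mean count reached 100, those most like *Chrna3* across libraries were *Dynll2* (r = 0.96), *Slc6a2* (0.93) and *Cyb561* (0.92), a cytochrome of secretory vesicles. Without control replicate 5 these were 0.87, 0.86 and 0.39. Those most like *Chrna7* were *Osbpl3* (0.98), *Pcyt2* (0.98) and *Trpm8* (0.97), the cold-activated channel of sensory neurons, and those most like *Chrna6* were *A3galt2* (0.99), *Celf6* (0.98) and *Sorl1* (0.98), all at 0.96 or more without control replicate 5. *Chrnb4* was most like *Cryzl1* (0.94), *Cyb561* (0.93) and *St6galnac5* (0.92), which were at 0.77, 0.40 and 0.53 without control replicate 5. These values are the top of many and share the same 10 libraries. The split by replicate number also remains in them, and its part was not tested.

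Of the other genes of cholinergic signalling, 1 passed the study's cut-off. *Lypd6*, a Ly6 protein known to bind nicotinic receptors and Wnt co-receptors, was at 10.9, 10.2, 11.4, 10.3 and 12.3 CPM in control and at 12.9, 13.4, 13.0, 13.9 and 11.9 CPM in *WD1* cKO replicates 1 to 5. All mutant libraries but replicate 5 were above every control library, and the log2 fold change was 0.24 (SE 0.068, unadjusted p = 0.00425, adjusted p = 1.00, edgeR). It passed that cut-off in 8 of 20 alternative settings, among them 2 of the 10 in which 1 library was left out, and had an adjusted p under 0.05 in 0 of them. It was 1 of 9 genes for assembly and Ly6 modulation tested, where the median log2 fold change was -0.01. Of that list *Lynx1* and *Ly6h* had the highest levels, at 134 ± 35.5 CPM (SD, n = 10) for *Lynx1*.

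No other cholinergic gene had an unadjusted p-value under 0.05 in edgeR. This covers 4 tested of 7 other nicotinic subunits, among them *Chrnb1* of the muscle receptor at 4.06 ± 0.655 CPM (SD, n = 10), 5 of 5 muscarinic receptors, and 3 tested of 5 genes for making, moving and breaking down acetylcholine. *Chrm2*, the muscarinic receptor with the highest level in CPM, was at 26.8 to 38.9 CPM in control and 31.9 to 49.8 CPM in *WD1* cKO libraries. *Ache*, which breaks acetylcholine down, was at 152 to 192 CPM in control and 153 to 182 CPM in *WD1* cKO libraries, whereas *Chat*, which makes it, was at most 0.11 CPM in any library.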

How the data were processed

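Stranded mRNA libraries were sequenced from E18.5 DRG (5 control, 5 *WD1* cKO). The authors aligned reads with STAR 2.7.8a to GRCm39 and deposited the raw count per gene from featureCounts 2.0.1, 1 file per library. The strand setting and the treatment of multi-mapping reads are not given in the sources used here, so overlapping genes are uncertain. Genes were named, and exon lengths and neighbours taken, from GENCODE M21 (GRCm38), which matched 52081 of 55414 identifiers.

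The 17490 genes that reached 10 counts in 5 or more libraries were tested with edgeR 4.0.16 in R 4.3.3, using TMM scaling, the quasi-likelihood test without covariate and Benjamini-Hochberg adjustment over all of them. The study used DESeq2, which was run as an alternative (1.42.0). Exact permutation tests were two-sided on the group means of log2 CPM (prior count 1), and of log2 ratios for ratios. Permutations of correlations numbered 100000, and the relations to the autonomic markers were not planned beforehand. Within groups, all 20 pairs of libraries differed beyond sampling noise (chi-square over its degrees of freedom, 4.35 to 15.0). None was therefore the same library sequenced again, but whether any share an embryo cannot be told from this. The alternatives tried were size factors from DESeq2, no filter, a mean count of at least 100, a replicate block, *Xist* as a covariate, robust dispersions, a prior count of 2, each library left out, and, chosen after seeing the data, replicate numbers 1 to 3 only and 4 and 5 only.

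The members and gene lists were chosen with earlier results of these data known. Named are the members, *Dach1*, genes of a list with an unadjusted p under 0.05 or otherwise up to 4 of its highest levels, the 3 genes most like a member, flanking or overlapping genes, and markers that stand apart in the same library. A few marker genes are not reported here and enter no sum.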

Additional observations from a re-analysis of the deposited data

Results flagged for a closer look

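Samples were screened for a value whose gap to its nearest neighbour exceeds Dixon's 95% critical value of 0.71 of the group's range for 5 samples. Of 80 groups of 5 screened over the subunits and part of the listed genes, 15 held such a value. Independent, normally distributed groups would give about 1 in 20, or 4.0. Many of these genes were high together in control replicate 5, so 15 against 4.0 is no comparison with chance. Of the 15 values, 11 were in control replicate 5, and 2 were subunits. No spinal cord marker was among them, although 5 of 6 were highest in control replicate 3, so counts by library depend on the genes screened.

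*Chrna3* was at 18.7 CPM in control replicate 5, whereas the other controls lay between 8.03 and 10.5 CPM. *Chrnb4* was at 9.33 CPM there, against 3.40 to 4.28 CPM. In the same library *Slc18a3*, the vesicular acetylcholine transporter, was at 0.924 CPM, and the other controls reached 0.0736 to 0.141 CPM.

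Of the sympathetic and autonomic markers, 8 of 9 lay far above the other controls in that library. These were *Slc6a2* (112 CPM), *Dbh* (53.1 CPM), *Slc18a2* (34.0 CPM), *Ddc* (18.8 CPM), *Gata2* (8.84 CPM), *Phox2a* (6.16 CPM), *Hand2* (5.24 CPM) and *Gata3* (3.43 CPM). *Th*, which sensory neurons can also express, was highest there but not far apart. Their part in the subunit levels was not tested.

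The 4 other values belong to no subunit. *Chrm2* was at 49.8 CPM in *WD1* cKO replicate 5, against 31.9 to 36.5 CPM, and *Unc50*, a gene for receptor assembly, was at 39.5 CPM there, against 36.6 to 37.4 CPM. *Chrm4* was at 18.3 CPM in *WD1* cKO replicate 4, against 14.6 to 15.6 CPM. *Bche* was at 50.4 CPM in control replicate 3, against 58.7 to 61.7 CPM.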

How the results depend on the processing

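Over 20 alternative settings, 0 of 158 fits of a subunit had an adjusted p under 0.05 (lowest 0.629) in edgeR or DESeq2, and 6 had an unadjusted p under 0.05, 5 of them for *Chrnb3* and 1 for *Chrnb2* with *Xist* as a covariate (-0.11). That covariate also moved *Chrnb4* from -0.31 to -0.49 and *Chrna3* from -0.17 to -0.275. *Chrna6*, *Chrnb2* and *Chrnb3* kept their direction in every setting run. *Chrna3* changed sign without control replicate 5 (0.12) and with replicate numbers 1 to 3 only (0.12), *Chrna5* without control replicate 5 (0.12), without *WD1* cKO replicate 4 (0.018) and with numbers 1 to 3 only (0.13), and *Chrnb4* without control replicate 5 (0.034). *Chrna4* changed sign without control replicate 1 (-0.01), without *WD1* cKO replicate 1 (-0.022) and with numbers 4 and 5 only (-0.048). *Chrna7* did so without control replicate 4 (0.006), control replicate 5 (0.015) or *WD1* cKO replicate 3 (0.003), and with numbers 1 to 3 only (0.004). With 1 library left out, log2 fold changes ranged from -0.26 to 0.12 for *Chrna3*, -0.02 to 0.13 for *Chrna4*, -0.20 to 0.12 for *Chrna5*, -0.35 to -0.08 for *Chrna6*, -0.08 to 0.02 for *Chrna7*, -0.09 to -0.02 for *Chrnb2*, 0.32 to 0.66 for *Chrnb3*, -0.42 to 0.03 for *Chrnb4* and 0.21 to 0.28 for *Lypd6*, and the median of the subunits from -0.11 to 0.05. The 7 genes with an adjusted p under 0.05 became 3 to 6 with 1 library left out, 4 when the mean count had to reach 100, 4 with *Xist* as a covariate, 3 with numbers 1 to 3 only, 3 with numbers 4 and 5 only and 19 with DESeq2. The study's cut-off, passed by 67 genes, was passed by 128 without a filter, 133 with the replicate block, 142 with numbers 4 and 5 only and 52 to 94 with 1 library left out. The causes were not tested. Same-numbered libraries correlated at 0.04 to 0.39 in their deviations, over 0.1 in 4 of 5 numbers, and 7 of 10 libraries correlated best with their own number. This is a hint from the data that same-numbered libraries share something, but nothing in the labels says so and number 2 was at 0.04, so the block was kept as an alternative. With the replicate block *Chrnb3* was at 0.48 (unadjusted p = 0.0174, edgeR) and no subunit was called.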
